A study of Mus musculus with 12 samples.

Results

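The 10 genes described here encode the enzymes that build long-chain fatty acids and put double bonds into them, together with the transcription factor Srebf1. They were taken by symbol from GENCODE mouse release M21, and each of the 10 symbols matched a single identifier among the 55487 in both count tables. The genes were chosen with the results of both comparisons below already known, so their levels and differences are given as a description, and the count of members called is given beside the share of all genes called. RNA was sequenced from 12 samples of mouse OT-1 CD8+ T cells, which carry a transgenic T cell receptor that recognises a peptide of ovalbumin. Female and Male, with 3 samples each, were spleen cells of each sex stimulated for 3 days with beads against CD3 and CD28 and with IL2. WT and KD, again with 3 samples each, came from a separate batch of male cells that were electroporated and then cultured for 3 days. In KD cells, labelled KDM5D KD, Cas9 and a guide RNA were introduced to lower Kdm5d, a histone demethylase gene of the Y chromosome. WT cells were given the guide RNA alone, so an effect of Cas9 and an effect of less Kdm5d cannot be told apart. Male and Female cells differ in all sex-linked genes, not in Kdm5d alone. The age of the mice, their number and whether samples shared an animal or a culture are not given in the sources used here, so the spread between samples may be technical.

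Fatty acid synthesis starts in the cytosol, where ATP citrate lyase (Acly) splits citrate into acetyl-CoA and acetyl-CoA carboxylase (Acaca) turns part of it into malonyl-CoA. Fatty acid synthase (Fasn) joins these units into palmitate, which Elovl6 lengthens to stearate and the stearoyl-CoA desaturases Scd1 and Scd2 convert to monounsaturated acids. Fads1 and Fads2 desaturate dietary polyunsaturated fatty acids, Fads3 is their least studied relative, and Srebf1 encodes a membrane-bound transcription factor that activates many of these genes after it is cut and released. Activated T cells are known to switch on this programme while they enlarge and divide.

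The members lie on 3 chromosomes. In GENCODE M21 (GRCm38), Fads3 (ENSMUSG00000024664, chr19:10041569-10060110), Fads2 (ENSMUSG00000024665, chr19:10062765-10101746) and Fads1 (ENSMUSG00000010663, chr19:10182888-10196877) form a cluster on chromosome 19. On the same chromosome lie Scd2 (ENSMUSG00000025203, chr19:44293674-44306864) and Scd1 (ENSMUSG00000037071, chr19:44394455-44407879). Chromosome 11 carries Srebf1 (ENSMUSG00000020538, chr11:60199089-60222581), Acaca (ENSMUSG00000020532, chr11:84129672-84401651), Acly (ENSMUSG00000020917, chr11:100476353-100528000) and Fasn (ENSMUSG00000025153, chr11:120805846-120824547). Elovl6 (ENSMUSG00000041220, chr3:129532355-129638495) is on chromosome 3. With 5 members on chromosome 19, 4 on chromosome 11 and 1 on chromosome 3, no member is sex-linked.

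The bases before the members' start sites were searched for known motifs as a description. A link between motifs and differences between groups was not tested. RefSeq start sites (GRCm38.p6) were available for 7 of the 10 symbols, with 9 start sites in all, 3 of them for Srebf1. The 250 bases before each start were searched on both strands. The 3 sequences below, printed 5′ to 3′ on the strand of the gene, show the CCAAT box, the element bound by NF-Y, in Fasn, Fads3 and the start site of Srebf1 where it lay nearest to the start. Capitals mark CCAAT or its reverse complement, and a pair that overlaps in Fasn appears as 1 run.
Fasn, minus strand, chr11:120824548-120824797: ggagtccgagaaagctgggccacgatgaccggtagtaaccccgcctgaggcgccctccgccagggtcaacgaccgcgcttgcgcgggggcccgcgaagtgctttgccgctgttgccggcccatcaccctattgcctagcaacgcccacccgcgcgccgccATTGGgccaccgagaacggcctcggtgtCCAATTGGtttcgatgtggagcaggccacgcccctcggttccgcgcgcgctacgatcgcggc
Fads3, plus strand, chr19:10041298-10041547: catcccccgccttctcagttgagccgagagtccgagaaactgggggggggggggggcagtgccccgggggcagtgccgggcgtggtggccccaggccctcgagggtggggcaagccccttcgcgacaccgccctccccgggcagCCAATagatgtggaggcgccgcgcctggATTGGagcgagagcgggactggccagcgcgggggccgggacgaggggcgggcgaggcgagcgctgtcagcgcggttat
Srebf1, minus strand, chr11:60210472-60210721: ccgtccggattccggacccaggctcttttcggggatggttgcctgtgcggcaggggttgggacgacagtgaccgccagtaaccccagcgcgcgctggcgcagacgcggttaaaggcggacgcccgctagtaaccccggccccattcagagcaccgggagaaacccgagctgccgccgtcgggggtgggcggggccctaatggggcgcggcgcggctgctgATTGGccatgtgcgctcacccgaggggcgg
CCAAT was present in 4 of the 9 member windows, in Fasn, in Fads3 and in the windows of 2 of the Srebf1 start sites, and in 33.8% of 32851 RefSeq windows of this length. In Fasn it occurred 3 times, at 90, 62 and 59 bases before the start. GGGCGG, the GC box bound by Sp1 family factors, was in 5 of the 9 windows, against 32.7% of all windows. Not every window lay upstream of its gene as annotated in GENCODE. In the Fads2 window, 243 of the 250 bases, with the GC box, lay in annotated exons, as did 129 bases for Elovl6. The Acaca start site, chr11:84195438, lay within the gene. So did the Srebf1 start sites chr11:60210471, whose window is printed above, and chr11:60220627. The sterol regulatory element TCACNCCAC and the E-box CACGTG were in none of the 9, against 1.05% and 6.02% of all windows. The absence of a match says only that these letters were not in these windows.

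Total counts were between 78748647 and 110803318 per sample, and log2 CPM (counts per 1000000 counts of a library) correlated at 0.978 to 0.983 across genes between samples of a group. Kdm5d was at 50.9 CPM ± 2.22 (SD, n = 3) in WT and 22.0 CPM ± 0.763 (SD, n = 3) in KD, and the Female libraries held at most 2 counts of it. The 7 markers of CD8 T cells summed to between 2088 and 2115 CPM in Female and Male, between 2586 and 2634 CPM in WT and between 2256 and 2313 CPM in KD, and none was at 0. The close sums in Female and Male held opposite differences. Lck and Cd3e were higher in every Male sample than in every Female sample, Cd8a, Cd8b1 and Cd247 were lower, and Cd3d and Cd3g overlapped. Markers of B cells, myeloid cells and erythroid cells summed to at most 6.49 CPM, 0.849 CPM and 1.33 CPM, and those of adipocytes to at most 0.0535 CPM. The B cell sum was between 5.37 and 6.49 CPM in WT and between 4.00 and 5.10 CPM in KD, without overlap. The CD4 T cell markers summed to between 87.2 and 89.6 CPM in Female and between 53.9 and 57.3 CPM in Male, and between 43.3 and 45.9 CPM in WT and between 39.9 and 42.6 CPM in KD. That sum was almost wholly Zbtb7b, and Cd4 itself was at most 0.201 CPM in any library. NK cell markers summed to between 39.2 and 41.3 CPM in Female, between 42.5 and 46.4 CPM in Male, between 84.7 and 87.6 CPM in WT and between 73.8 and 78.0 CPM in KD, nearly all from Klrk1, with Ncr1 at most 0.203 CPM. The part of these marker differences in the results was not tested. In bulk RNA, fewer cells of a type and less RNA per cell cannot be told apart.

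All 10 members passed the low-count filter in both tables. Levels were compared between genes as CPM per kilobase of exon, using the union of the exons of all annotated transcripts. Scd2 had the highest level in each group, with 178 CPM per kilobase in Female, 269 in Male, 279 in WT and 224 in KD (n = 3 in each). Fads3 had the lowest, between 0.284 in Female and 2.35 in KD. The members between them changed places. In Female the order was Acly at 42.5, Srebf1 at 31.6, Fasn at 27.1, Fads1 at 22.2, Elovl6 at 14.4, Fads2 at 12.3, Scd1 at 10.8 and Acaca at 7.07 CPM per kilobase. In Male, Acly at 77.9, Fasn at 69.2 and Fads2 at 50.4 stood above Srebf1 at 44.2, Scd1 at 30.0 and Fads1 at 25.0 CPM per kilobase. No neighbours in these orders overlapped between samples of Female or of Male. The spread between samples does not cover the choice of exon length, such as 17074 bases for Acaca, on which the order may depend. In KD, Scd1 at 16.9 and Fads1 at 16.2 CPM per kilobase were neighbours whose samples overlapped.

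**Figure D1:**
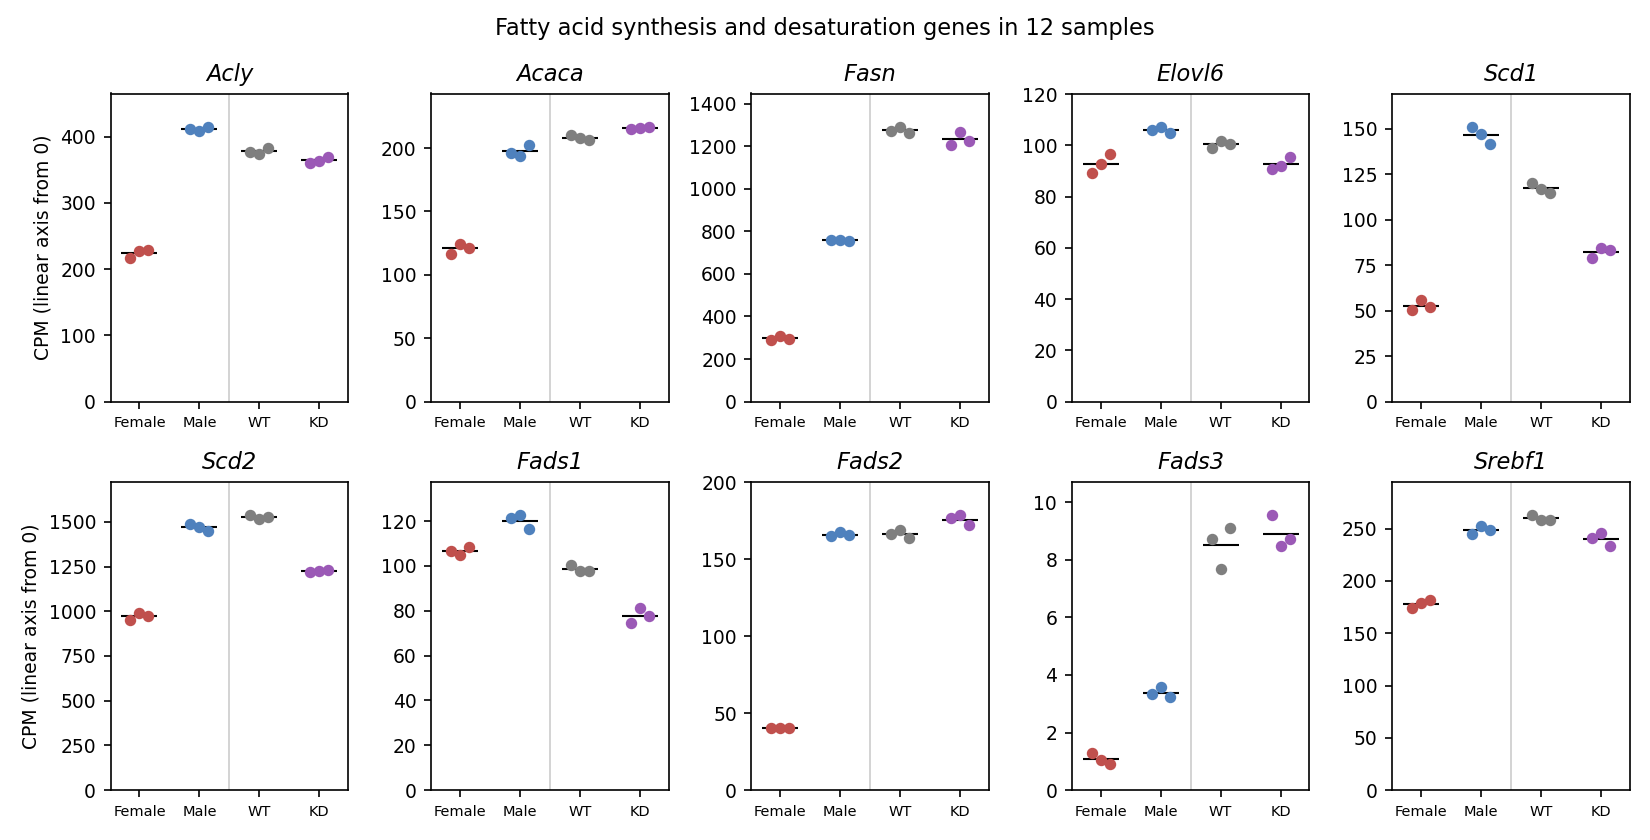
CPM of each of the 10 members (vertical axes, linear, starting at 0) in the 3 samples of Female, Male, WT and KD, with a horizontal bar at the group mean. The line between Male and WT separates the tables, which were normalized separately. Every member has its 3 Male points above its 3 Female points, and Scd1, Scd2 and Fads1 have their 3 KD points below their 3 WT points.

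Male and Female cells were compared to describe how far the programme differed between the sexes after activation. Each of the 10 members was higher in Male, from 1.13-fold for Fads1 to 4.11-fold for Fads2. All 10 were called higher, meaning an edgeR adjusted p under 0.05, and in all 10 the groups did not overlap. Among all 20208 genes tested, 49.8% were called, 23.5% were called higher in Male and 28.6% had groups that did not overlap with Male higher, while 29.7% had such groups with Male lower. The members' log2 fold changes had a median of 0.79, against 0.011 over all genes. These values chose the members, so nothing is read from them.

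The enzymes that supply and build the chain came first in the pathway. Acly was at 217, 227 and 228 CPM in the Female samples and at 411, 408 and 415 CPM in the Male samples. Every Male sample was above every Female sample, with a log2 fold change of 0.88 (SE 0.023). Fasn was at 287, 309 and 296 CPM in Female and at 759.8, 759 and 755 CPM in Male. That was 2.55-fold higher in Male, with a log2 fold change of 1.35 (SE 0.025) and a spread of 2.66 CPM (SD, n = 3) around the Male mean of 758. Acaca, which makes the malonyl-CoA that Fasn uses, ran from 117 to 125 CPM in Female and from 194 to 203 CPM in Male, with a log2 fold change of 0.71 (SE 0.030). Of Acaca's subsequences of 31 bases, 33.4% also occur in transcripts of other genes, mainly the processed pseudogene Gm5182, so reads could have been split between them. Gm5182 was at 26.5 CPM in Female and 39.7 CPM in Male. Elovl6 differed least among the enzymes of saturated chains, with 89.1 to 96.7 CPM in Female and 105 to 107 CPM in Male and a log2 fold change of 0.19 (SE 0.031).

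The stearoyl-CoA desaturases differed from each other in size. Scd1 was at 50.3, 55.8 and 52.0 CPM in Female and at 151, 147 and 142 CPM in Male, a log2 fold change of 1.48 (SE 0.040). Scd2, the more abundant of the pair per kilobase, was at 953, 992 and 974 CPM in Female and at 1486, 1470.2 and 1449 CPM in Male, a log2 fold change of 0.59 (SE 0.017). Both separated the groups without overlap. Scd1 shared 8.14% and Scd2 6.81% of its subsequences with other genes, Scd3 first among them, so few reads of either could be misplaced. The ratio of Scd1 to Scd2 counts per base, which does not depend on library scaling, was 0.0605 ± 0.0021 (SD, n = 3) in Female and 0.112 ± 0.0022 (SD, n = 3) in Male.

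The largest and the smallest differences were in neighbouring genes of the Fads cluster. Fads2, the desaturase that takes the first step in making long polyunsaturated fatty acids, was at 40.4, 40.1 and 40.6 CPM in Female and at 165, 167 and 166 CPM in Male. Its log2 fold change was 2.04 (SE 0.023), larger in size than that of 98.5% of all genes tested. Fads1, which acts later in the same route, was at 107, 105 and 109 CPM in Female and at 121, 123 and 117 CPM in Male, a log2 fold change of 0.17 (SE 0.027). Both genes had groups that did not overlap. The ratio of Fads2 to Fads1 per base was 0.554, 0.558 and 0.546 in the Female samples and 1.98, 1.99 and 2.08 in the Male samples, so that the order of the pair was opposite in the sexes. Fads3 was low, with 88 to 109 counts in Female and 287 to 333 in Male. It ran from 0.905 to 1.29 CPM in Female and from 3.24 to 3.60 CPM in Male, a log2 fold change of 1.65 (SE 0.16).

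Srebf1, the transcription factor, was at 174, 179 and 182 CPM in Female and at 245, 253 and 248 CPM in Male. The groups did not overlap, and the log2 fold change was 0.48 (SE 0.024). That was smaller than the log2 fold changes of Fasn, Scd1, Fads2, Fads3, Acly, Acaca and Scd2, and larger than those of Elovl6 and Fads1. The counts are per gene, so the transcripts from its 3 start sites are not separated. Rai1, on the other strand, overlaps Srebf1 at 1 end and was lower in Male, at 107 against 119 CPM.

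**Figure D2:**
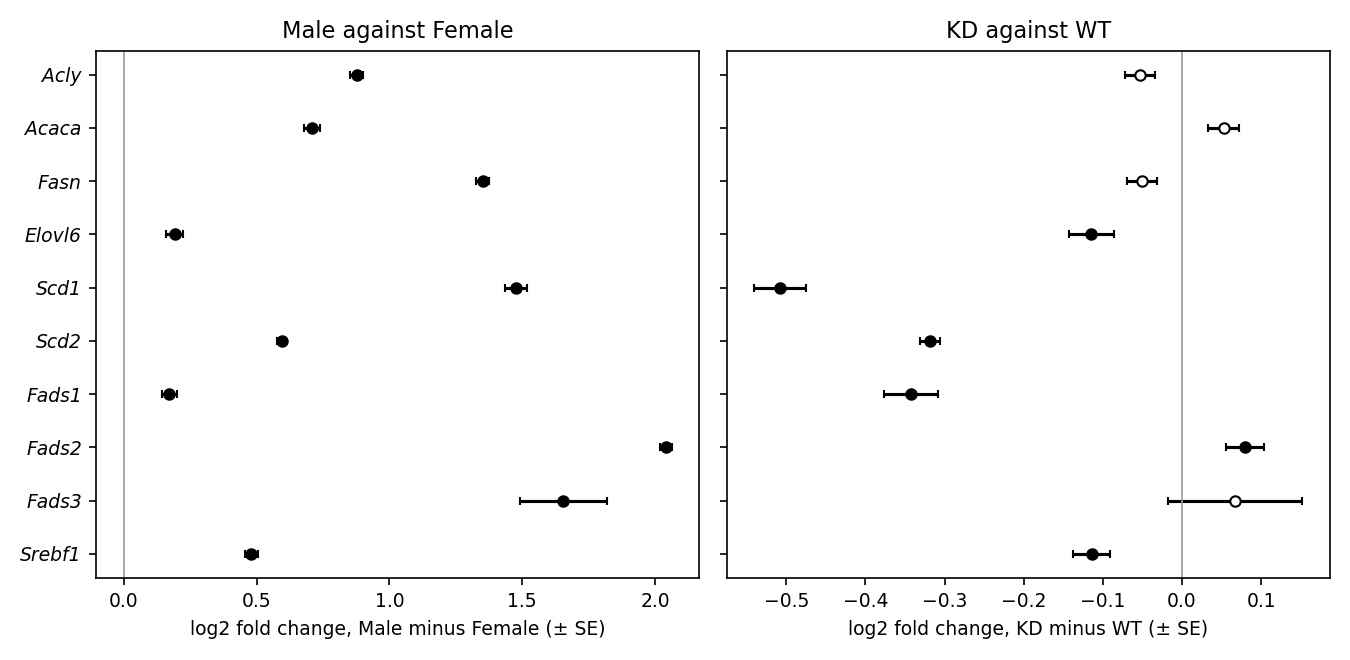
Log2 fold change of each member (points, with the SE as bars) for Male minus Female on the left and KD minus WT on the right, on axes of different range. Filled points were called in the edgeR fit and open points were not. On the left all points lie between 0.17 and 2.04, and on the right they lie between -0.51 and 0.079.

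KD cells were compared with WT cells to describe the members where Kdm5d expression had been lowered in male cells. The desaturases Scd1, Scd2 and Fads1 were lower in KD, at 0.703, 0.802 and 0.789 times WT, while Fasn, Acly and Acaca, which make the chain, were at 0.966, 0.964 and 1.04 times WT. The members did not split by role, since the desaturase Fads3 was not called and the elongase Elovl6 was called lower. The desaturase Fads2 was called higher, but only at 1.06 times WT and not in every fit. Of the 10 members, 5 were called lower in KD and 1 higher. Among all 20413 genes tested, 35.1% were called, 18.4% were called lower and 16.8% higher. The groups did not overlap for 6 members that were lower and 2 that were higher, against 23.6% and 23.2% of all genes. The members' log2 fold changes had a median of -0.084, against 0.012 over all genes. The members were chosen with this comparison known as well, so nothing is read from these counts.

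Among the chain-building enzymes, Fasn was at 1271, 1292 and 1261 CPM in the WT samples and at 1206, 1265 and 1222 CPM in the KD samples. The groups overlapped, with a log2 fold change of -0.050 (SE 0.019), and the gene was not called. Without KD replicate 2 it was called lower, with a log2 fold change of -0.072. Acly was at 377, 374 and 383 CPM in WT and at 359, 363 and 369.6 CPM in KD. Each KD sample was below each WT sample, yet the log2 fold change was only -0.053 (SE 0.019) and was not called. It was called without KD replicate 3, with a log2 fold change of -0.065. Acaca ran from 207 to 210.3 CPM in WT and from 215 to 217 CPM in KD, a log2 fold change of 0.053 (SE 0.019) that was not called. Elovl6 was called lower in KD, with 98.9 to 102 CPM in WT and 90.9 to 95.3 CPM in KD and a log2 fold change of -0.11 (SE 0.028).

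The stearoyl-CoA desaturases stood lower in each KD sample. Scd1 was at 120.0, 117 and 115 CPM in WT and at 79.1, 84.7 and 83.5 CPM in KD. Its log2 fold change of -0.51 (SE 0.033) was the largest in size among the members. Scd2 was at 1538, 1517 and 1526 CPM in WT and at 1221, 1222 and 1230.2 CPM in KD, a log2 fold change of -0.32 (SE 0.013). Both were called lower, and neither pair of groups overlapped. Ratios within a sample, which need no library scaling, moved the same way. The ratio of Scd1 to Fasn per base was 0.206 ± 0.0047 (SD, n = 3) in WT and 0.150 ± 0.0031 (SD, n = 3) in KD, and that of Scd2 to Fasn was 2.40 ± 0.041 (SD, n = 3) and 1.99 ± 0.050 (SD, n = 3).

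In the Fads cluster the neighbours went in different directions. Fads1 was at 101, 97.7 and 97.7 CPM in WT and at 74.6, 81.2 and 77.7 CPM in KD, without overlap, and was called lower with a log2 fold change of -0.34 (SE 0.035). Fads2 was at 167, 169 and 164 CPM in WT and at 177, 179 and 172 CPM in KD, also without overlap. It was called higher with a log2 fold change of 0.079 (SE 0.024), but it was no longer called without KD replicate 1, KD replicate 2, WT replicate 1 or WT replicate 3, where the log2 fold change was between 0.065 and 0.078. The ratio of Fads2 to Fads1 per base was 2.42, 2.53 and 2.45 in the WT samples and 3.46, 3.22 and 3.24 in the KD samples. Fads3 had groups that overlapped, with 7.68 to 9.11 CPM in WT and 8.46 to 9.55 CPM in KD. Srebf1 was at 263, 258 and 258 CPM in WT and at 241, 246 and 233 CPM in KD. It was called lower with a log2 fold change of -0.11 (SE 0.023), and no KD sample reached the lowest WT sample.

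**Figure D3:**
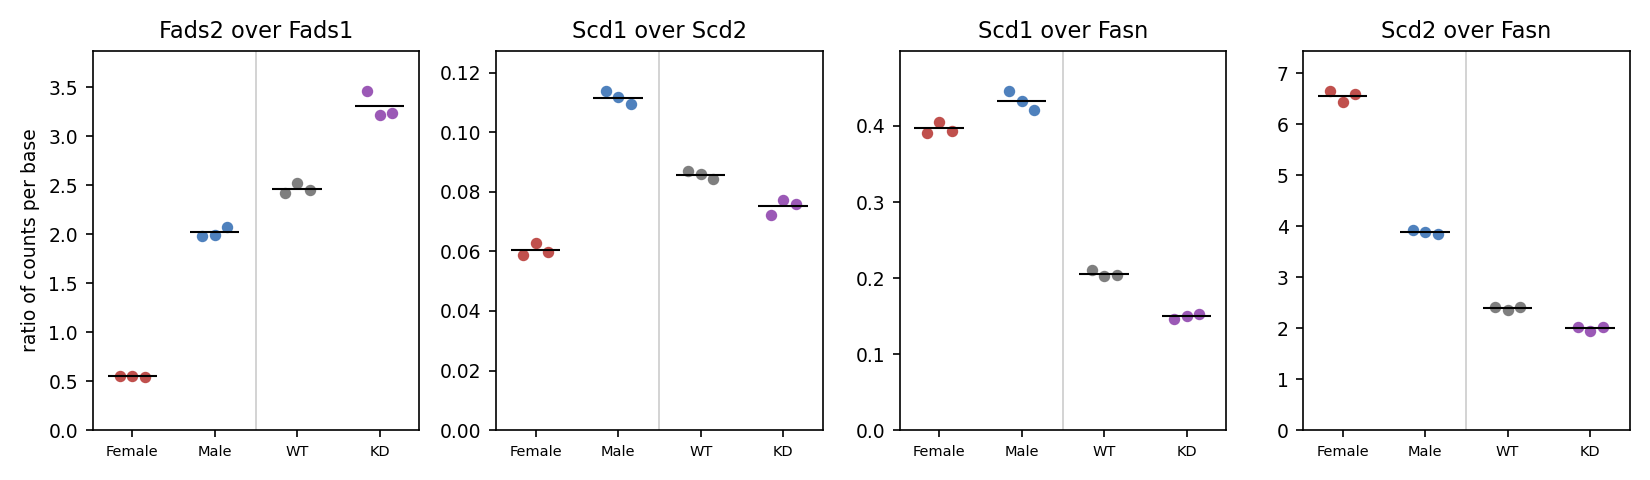
Ratios of counts per base of exon (vertical axes, linear, starting at 0) for 4 pairs of members in each of the 12 samples, with bars at the group means. The ratio of Fads2 to Fads1 lies between 0.546 and 0.558 in Female and between 1.98 and 2.08 in Male, and all 3 KD samples lie above all 3 WT samples. The ratios of Scd1 and Scd2 to Fasn are lower in every KD sample than in every WT sample.

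Male and WT are both male cells and can be set side by side, but they come from separate batches in separately normalized tables, and WT cells were electroporated, so batch and electroporation cannot be told apart and no test was made. Fads2, Scd2, Srebf1 and Acaca had close levels, with WT at 1.00, 1.04, 1.04 and 1.06 times Male. Fasn was at 1275 CPM in WT against 758 CPM in Male, or 1.68 times, and Fads3 at 8.50 against 3.39 CPM, or 2.51 times. With scaling factors computed over all 12 samples these ratios were 1.71 and 2.55. Scd1 and Fads1 were lower in WT, at 0.799 and 0.821 times Male.

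Other genes of the route were read from 6 lists with 56 genes chosen by role. Elovl2, Elovl3 and Prkaa2 fell under the low-count filter in Male and Female, as did Elovl3 and Prkaa2 in WT and KD. In Male against Female, 53 of the 56 were tested, and 22 were called higher and 12 lower, against 23.5% and 26.3% of all genes. All genes tested include many at low counts and many that do not code for protein. With protein-coding genes alone, or where the mean log2 CPM had to reach 1, larger shares were called in each direction in both comparisons. The shares of all genes are therefore a low reference for these lists, and no excess is read from the lists' counts. Substrate and NADPH supply had 4 of 6 genes called higher and none lower, with a median log2 fold change of 0.99. Slc25a1, the mitochondrial citrate carrier that feeds Acly, was higher in Male, at 53.3 CPM in place of 27.0 CPM (log2 fold change 0.98, SE 0.043, edgeR adjusted p 2.82e-08). The NADPH-forming enzymes G6pdx and Pgd, of the pentose phosphate pathway, had log2 fold changes of 1.07 (SE 0.035) and 0.99 (SE 0.023), and Idh1 had 0.81 (SE 0.078), with edgeR adjusted p of 3.25e-09, 3.36e-10 and 9.27e-06. G6pdx, which is X-linked and shares 12.6% of its subsequences with G6pd2, was at 26.3 CPM in Female and 55.4 CPM in Male.

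Of 10 elongation genes tested, 5 were called higher and 3 lower in Male, against 23.5% and 26.3% of all genes. Hsd17b12, a reductase of the elongation cycle, was higher in Male, at 88.9 CPM in place of 41.4 CPM (log2 fold change 1.10, edgeR adjusted p 6.94e-10), and Elovl1, which extends very long chains, was at 56.7 CPM in place of 28.2 CPM (1.01, edgeR adjusted p 2.52e-08). Tecr, the last enzyme of the cycle, was higher by 0.28 on the log2 scale (edgeR adjusted p 2.58e-06). Tecr shares 10.2% of its subsequences with other genes, so reads could have been split between them in both comparisons. Elovl5, which extends polyunsaturated acids between the steps of Fads2 and Fads1, was lower in Male, at 201 against 226 CPM (-0.17, edgeR adjusted p 6.13e-05). Among other desaturases and electron donors, 4 of 6 were called higher, against the same 23.5% of all genes, with Cyb5b, an outer mitochondrial membrane cytochrome, at 0.45 (edgeR adjusted p 4.26e-08) and Cyb5r3, the reductase of cytochrome b5, at 0.19 (edgeR adjusted p 0.00173). Cyb5a, the usual electron donor of desaturases, had 0.057 and was not called (edgeR adjusted p 0.0620), but was called higher in 3 of the 10 other settings. Scd4 was low, at 4.60 CPM in Female and 6.55 CPM in Male (0.51, edgeR adjusted p 0.00435), and was no longer called when all 12 samples were fitted together. It shares 10.7% of its subsequences with other genes, Scd1 first among them, so reads of Scd1 could have been counted for it. Of the 5 other synthesis enzymes, Mecr of mitochondrial fatty acid synthesis was called higher, at 0.53 (edgeR adjusted p 6.28e-06), and Acacb, the carboxylase of the outer mitochondrial membrane, lower, at -0.75 (edgeR adjusted p 0.000213). Mcat and Oxsm of the mitochondrial route were not called, with log2 fold changes of -0.022 and 0.076, but Oxsm was called higher in 2 of the 10 other settings.

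The values of Mlx, Agpat5 and G6pdx carry a further limit, since 17.1%, 18.9% and 11.8% of their subsequences occur on the other strand in transcripts of other genes, and whether counting used strand is not given in the sources used here.

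Control genes had 4 of 13 tested called higher and 4 lower, near the 23.5% and 26.3% of all genes. Srebf2, the relative of Srebf1 that mainly drives cholesterol genes, was higher in Male, at 515 CPM in place of 346 CPM (log2 fold change 0.57, edgeR adjusted p 2.95e-09). Insig1, which holds the SREBP complex in the endoplasmic reticulum and is itself a target, was higher in Male, at 99.2 CPM in place of 43.0 CPM (1.21, edgeR adjusted p 4.51e-10). Mlx, a partner of glucose-sensing factors, had 0.62 (edgeR adjusted p 2.61e-06), and Mbtps1, the first protease to cut SREBP, had -0.16 (edgeR adjusted p 0.000185). Glycerolipid assembly had 4 of 13 called higher and 4 lower, also near those shares. Dgat1, which makes triglyceride, was lower in Male, at 51.8 against 93.4 CPM (-0.85, edgeR adjusted p 7.50e-09), as was Gpat4 (-0.36, edgeR adjusted p 1.08e-06). Lpin1 was higher, at 0.62 (edgeR adjusted p 1.67e-07), and Agpat5 was at 0.11 (edgeR adjusted p 0.0287), no longer called without any of Female replicates 1, 2 and 3 or Male replicates 1 and 2.

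**Figure D4:**
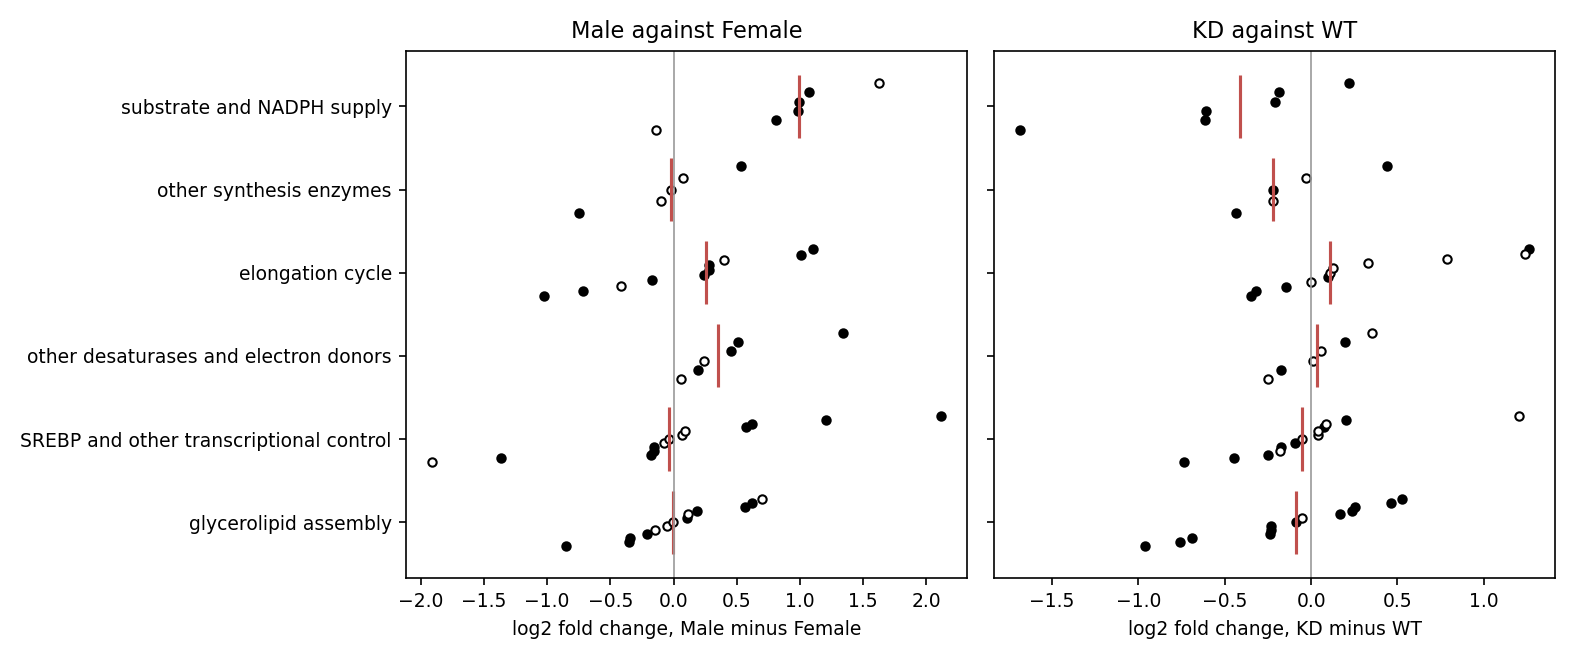
Log2 fold changes of the tested genes of 6 pathway lists (rows), for Male minus Female on the left and KD minus WT on the right. Filled points were called in the edgeR fit, open points were not, and the vertical bar is the median of the list. The supply genes have a median of 0.99 on the left and -0.41 on the right, and the glycerolipid genes spread to both sides in both panels.

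In KD against WT, 54 of the 56 were tested, with 12 called higher and 23 lower, against 16.8% and 18.4% of all genes. All 6 supply genes were called, 5 lower and 1 higher, with a median log2 fold change of -0.41. Idh1 fell from 11.4 to 7.49 CPM (-0.61, SE 0.10, edgeR adjusted p 0.00102), Pgd from 199 to 172 CPM (-0.21, edgeR adjusted p 3.01e-05) and G6pdx from 69.4 to 61.0 CPM (-0.19, edgeR adjusted p 0.00583). Slc25a1 was the gene that rose, from 42.3 to 49.2 CPM (0.22, edgeR adjusted p 0.000729). Insig1 fell from 111 to 81.3 CPM (-0.44, edgeR adjusted p 2.41e-06) and Srebf2 from 610.4 to 513 CPM (-0.25, edgeR adjusted p 2.92e-05). Mlx had -0.18 (edgeR adjusted p 0.00671) and Mbtps1 0.038, not called (edgeR adjusted p 0.294). Control genes in all had 2 of 13 called higher and 5 lower, against the shares of 16.8% and 18.4%.

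Elongation genes had 3 of 11 called lower and 2 higher in KD, against 18.4% and 16.8% of all genes. Tecr fell from 88.5 to 69.4 CPM (-0.35, edgeR adjusted p 2.62e-05) and Elovl5 from 228 to 183 CPM (-0.32, edgeR adjusted p 5.17e-06). Elovl1 was at -0.14 (edgeR adjusted p 0.0208), no longer called without KD replicate 1 or 3 or WT replicate 1 or 2. Hsd17b12 was at 0.095 (edgeR adjusted p 0.0395), no longer called when any single replicate was left out. Cyb5a fell, at -0.17 (edgeR adjusted p 0.000402), Cyb5r3 rose, at 0.19 (edgeR adjusted p 0.00294), and Cyb5b had 0.011, not called (edgeR adjusted p 0.733). Scd4 ranged from 1.32 to 7.10 CPM among the WT samples and from 0.911 to 6.43 CPM among the KD samples, so its groups overlapped. Oxsm fell from 31.5 to 23.3 CPM (-0.43, edgeR adjusted p 2.80e-05) and Mcat from 14.5 to 12.4 CPM (-0.22, edgeR adjusted p 0.0107), while Mecr rose from 18.2 to 24.6 CPM (0.44, edgeR adjusted p 0.000129). Glycerolipid assembly had 7 of 13 called lower and 5 higher, against the same 18.4% and 16.8% of all genes. There Dgat1 fell from 36.9 to 22.8 CPM (-0.69, edgeR adjusted p 4.86e-07). Agpat5 rose from 39.8 to 54.9 CPM (0.46, edgeR adjusted p 4.68e-06) and Lpin1 from 46.5 to 55.3 CPM (0.25, edgeR adjusted p 0.00106), and Gpat4 was not called (-0.051, edgeR adjusted p 0.237).

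Genes whose pattern was most like a member were found among 11936 other genes, by the root mean square difference of log2 CPM over the 12 samples after each gene was centred on its mean in each table. Nearest to Srebf1 were Arf1, Uba1 and Tpm3, at 0.0226, 0.0232 and 0.0236 log2 units. Fasn was nearest to Gbp10, Prdx1 and Psme1 (0.0543, 0.0551 and 0.0574), and Scd1 to Eif2ak2, Hk2 and Zbtb32 (0.0626, 0.0634 and 0.0712). Fads2 was nearest to Ly6a, Idi1 and Gm13502 (0.0739, 0.0865 and 0.0968). Idi1 belongs to cholesterol synthesis and had log2 fold changes of 1.99 in Male against Female and -0.14 in KD against WT. Among the members themselves, the nearest to Srebf1 was Scd2, at 0.0862, and the nearest to Fads2 was Fads3, at 0.187. With 11936 other genes and far fewer members to pick from, a closer gene outside the list says nothing about likeness among members. This describes 12 samples that fall into 4 groups, and no test was made.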

How the data were processed

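RNA of 12 samples in 4 groups of 3 was prepared with ribosomal RNA depletion and a stranded kit, per the labels' protocols. The authors deposited whole-number counts by gene, unnormalized, in 2 tables: Female with Male, and WT with KD. The submitters' processing notes name bcl2fastq 2.20.0, HISAT2, StringTie, DESeq2 and the build mm10, without saying what each was used for. If the counts were derived by StringTie from coverage, they may not be numbers of independent reads. At 100 to 300 counts the median variance of replicates over their mean was 3.01 to 6.49. Variation between samples also enters this ratio, and its cause was not tested. The members and the gene lists were chosen with earlier results of these data known.

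Each table was fitted separately with edgeR 4.0.16 (R 4.3.3). Genes kept by filterByExpr were scaled by TMM and tested by quasi-likelihood, p-values were adjusted by Benjamini-Hochberg over all of them, and an adjusted p under 0.05 was a call. Standard errors are the absolute log2 fold change over the square root of F. CPM used TMM-scaled library sizes. Symbols, positions and exon lengths came from GENCODE M21, which matched 55227 identifiers and left 260 unmatched, among them the most abundant, ENSMUSG00000118642, with 2.88% to 3.43% of counts. Promoter sequences came from RefSeq (GRCm38.p6). The text names the 10 members, Kdm5d, up to 4 genes of each pathway list with the smallest p in either comparison whose mean log2 CPM reached 1, and the 3 genes most like each of Srebf1, Fasn, Scd1 and Fads2. Genes that share sequence or position with a member were added. On simulated counts, 87% of 200 genes changed by 1 on the log2 scale were recovered in each comparison, out of 20208 genes (Male against Female, 3.87% of calls false) and 20413 genes (KD against WT, 3.33% of calls false). The simulation gave every gene the same dispersion and changed far fewer genes than were called, so these rates need not hold for the fits here. Alternatives were other normalizations, filters, tools (DESeq2 1.42.0, limma-voom 3.58.1), a fit of all 12 samples, a replicate block, counts divided by 4, protein-coding genes alone and leaving out each replicate.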

Additional observations from a re-analysis of the deposited data

How the results depend on the processing

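Over 10 other settings and 6 fits that each left out a replicate, all 10 members were called higher in Male in every fit, and between 5 and 8 members were called in KD against WT. The call of Fads2 in KD was also lost with no low-count filter. Acaca was called with counts divided by 4, with limma-voom, with upper-quartile factors, when the mean log2 CPM had to reach 1 and with protein-coding genes alone. Acly was called with DESeq2, limma-voom and relative log expression factors, and Fasn with DESeq2 and with the replicate block. Among pathway genes in Male against Female, Cyb5a was called with counts divided by 4, and both Cyb5a and Oxsm when the mean log2 CPM had to reach 1 and with protein-coding genes alone. Calls were also lost for Scd4 in Male with all 12 samples in one fit (edgeR adjusted p 0.540), for Agpat5 in Male and Hsd17b12 in KD with no low-count filter, for Hsd17b12 with the replicate block, and for Elovl1 in KD with upper-quartile factors. The cause was not tested. Counts over all genes stayed between 8546 and 10224 in Male against Female and between 6073 and 7385 in KD against WT. The number of genes tested changed with the setting, so the share called did not stay the same. It was larger with protein-coding genes alone and where the mean log2 CPM had to reach 1. The balance of these calls in KD turned with scaling, from 47.7% higher to 55.0% higher with upper-quartile factors, which raised the median log2 fold change of all genes from 0.012 to 0.043.

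With the replicate number as a block, 9740 genes were called in Male against Female and 6688 in KD against WT, with 10 and 7 members among them. Deviations of same-numbered samples correlated at 0.014 and -0.0056 on average, so the numbers were not taken to pair samples, although each sample correlated best with its own number in 3 of 3 pairs of Male and Female and in 1 of 3 of KD and WT.

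The log2 fold changes that changed sign were of genes not called. For Mcat in Male against Female the value was 0.0058 when the mean log2 CPM had to reach 1, 0.031 with protein-coding genes, and -0.078 to 0.016 with a replicate left out. In KD against WT, leaving out a replicate gave -0.15 to 0.072 for Acacb, -0.00052 to 0.022 for Cyb5b and -0.054 to 1.48 for Scd4. Depth limits Fads3, with 88 to 109 counts in Female.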

Other observations

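Genes within 50 kb of the Fads and Scd clusters were read after the members' values were known. Next to Fads1, Tmem258, a subunit of the oligosaccharyltransferase complex, was higher in Male, at 21.8 against 14.6 CPM (log2 fold change 0.58, edgeR adjusted p 3.17e-05), and lower in KD than in WT, at 24.3 against 28.2 CPM (-0.22, edgeR adjusted p 0.00799). Fen1, a DNA repair and replication nuclease, was higher in Male, at 75.9 against 51.5 CPM (0.56, edgeR adjusted p 0.00121), and higher in KD, at 163 against 121 CPM (0.43, edgeR adjusted p 0.000432). Myrf was higher in Male (0.51, edgeR adjusted p 0.0483) and in KD (0.39, edgeR adjusted p 0.0290), at no more than 3.86 CPM. Scd3 shares 14.4% of its subsequences with other genes, first among them its far more abundant relative Scd1, so reads of Scd1 could have been counted for it. Scd3 was higher in Male, at 1.91 against 0.755 CPM (1.34, edgeR adjusted p 0.000587), and was not called in KD (-0.25, edgeR adjusted p 0.535). Dagla was lower in Male (-1.22, edgeR adjusted p 0.00745) and higher in KD (2.13, edgeR adjusted p 0.00313), at no more than 0.519 CPM in any group. Best1 and the antisense gene Gm10143 were tested in both comparisons and not called in either.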
